A study of Rattus norvegicus with 24 samples.

Results

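Leptin was compared with vehicle in rats whose brown adipose tissue (BAT) was left intact, using the heart septum transcriptomes of 12 of the 24 libraries of the study. The members were chosen by their labels alone: 6 libraries carried intact BAT with leptin and 6 carried intact BAT with vehicle. All were Sprague-Dawley rats that had undergone cardiac ischemia-reperfusion, carried a cannula into the cerebral ventricles for a continuous infusion, and gave their septum on day 28. The groups thus differed by the infused agent, leptin or vehicle, and shared the injury, the cannula and the intact fat depot. The other 12 libraries came from leptin-infused rats with ablated BAT (6) or sympathetically denervated BAT (6), and they entered the model to help estimate the spread between animals. No uninjured heart is among the libraries analysed here, so every level below is a level in an injured heart.

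Leptin is a hormone released by fat cells that acts on receptors in the hypothalamus. It lowers food intake and raises sympathetic outflow, among other targets to BAT, the heat-producing fat depot, which in turn can release signals into the blood. The septum is the muscular wall between the ventricles, and its messenger RNA is dominated by transcripts for the contractile apparatus and for mitochondria, with further RNA from fibroblasts, vessels and immune cells. The comparison asks which of these transcripts were higher or lower when the brain received leptin while BAT was present. In bulk tissue, fewer cells of a type and less RNA per cell cannot be told apart.

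Genes carry Ensembl rat identifiers in the deposited table, without symbols, and the reference table at hand paired 0 of 30562 identifiers with a symbol. Genes are therefore given by position (mRatBN7.2 coordinates) and structure, and a protein name is used for a single one, titin, recognised by its length. Levels are CPM, read counts scaled to a common library size, and they compare samples for 1 gene, not genes with each other. A gene is called when its adjusted p is below 0.05 in edgeR's quasi-likelihood test, with Benjamini-Hochberg adjustment over all 17347 genes tested. Since the labels give every library a rat number of its own, the p-values measure the spread between animals.

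The largest difference among these 12 libraries followed the number of the rat. Over the 12 libraries the first principal component held 55.4% of the variance, and it placed the 4 rats with the highest numbers (leptin replicate 6 and vehicle replicates 4, 5 and 6, called high-numbered below) at 93.6 to 114 and the low-numbered ones (5 leptin, 3 vehicle) at -89.1 to -6.28. What the number stands for is not given in the sources used here. The imbalance of 1 against 3 high-numbered rats means that part of the difference between the groups can be a difference between the sets, so the differences of named genes are given by group alone, again with a 2-level term for the set, and within each set. A second imbalance cannot be repaired by such a term: 4 of the 6 leptin rats were numbered 56 to 62, while the low-numbered vehicle rats had the numbers 36 and 40 and, for replicate 3, a number above that of leptin rat 120. There, leptin and the run of rat numbers cannot be told apart. The libraries held 81050994 to 118346627 assigned reads, with the 4 high-numbered rats at 107358430 and above.

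**Figure D1:**
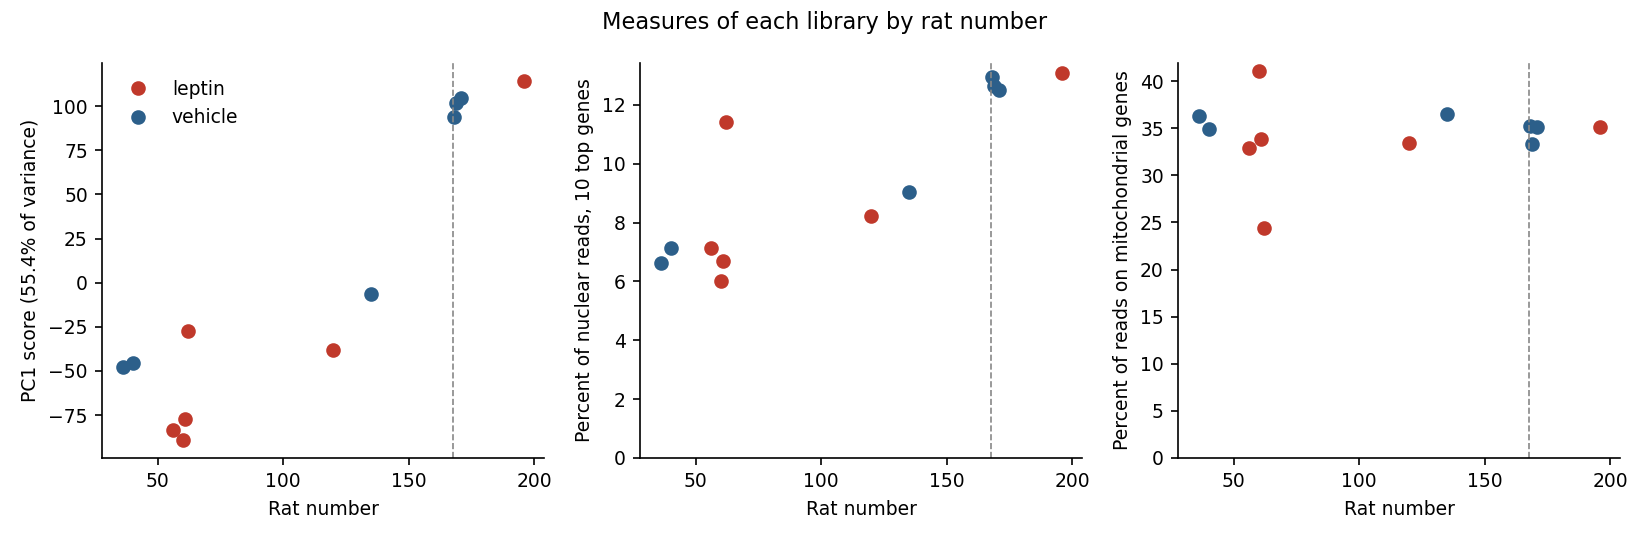
Each point is 1 library, plotted by rat number for the first principal component of log2 CPM (left), the percent of nuclear reads on the 10 most abundant nuclear genes (middle) and the percent of all reads on mitochondrial genes (right), with the dashed line between the low and the high numbers. On the first component the 4 high-numbered rats lie between 93.6 and 114 whatever they received, while the mitochondrial percentage spans 24.4 to 41.1 in leptin rats and 33.3 to 36.6 in vehicle rats.

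By group alone, 89 genes were higher (0.513% of those tested) and 28 lower (0.161%) in leptin-infused rats, together 117 genes or 0.674%. The genes that rose did so by a median log2 difference of 0.92 (0.48 to 2.27), a fold of 1.89, and the genes that fell by a median of -1.31 (-2.97 to -0.50), a fold of 2.48. Across all tested genes the median was -0.03. Leptin and vehicle libraries did not overlap in CPM for 67 of the 117 called genes (53 risen, 14 fallen), where 1.46% of all tested genes had non-overlapping groups (253 genes). As the same libraries made the calls, separation between groups is favoured by the choice.

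The set term raised the number of calls without losing any. With it 1063 genes were called (6.13% of those tested), 722 higher and 341 lower with leptin, and all 117 genes called by group alone were among them. The term lowered the median standard error of the log2 difference from 0.33 to 0.21. Among the low-numbered rats, 89 of the 89 risen genes were higher with leptin and 28 of the 28 fallen genes were lower, with medians of 0.85 and -0.97, while 46.5% of all tested genes lay above 0. Among the high-numbered rats, where a single leptin rat stands against 3 vehicle rats, 81 of the 89 risen genes were higher and 28 of the 28 fallen genes were lower, with medians of 0.63 and -1.52. There, 48.9% of all tested genes lay above 0. Both the low-numbered and the high-numbered rats entered the choice of the genes, so these counts only describe where the difference lay.

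The leptin rats differed among themselves in how far they moved. Against the low-numbered vehicle rats, the 4 leptin rats numbered 56 to 62 had a median difference of 0.95 over the risen genes and -1.09 over the fallen genes. Leptin rat 120 had medians of 0.46 and -0.39, in the same direction for 88 of 89 risen and 27 of 28 fallen genes. Over all tested genes, 49.3% lay above 0 for rat 120 against the same vehicle rats. All these rats were among the libraries that made the calls, which favours a shared direction. The counts of calls rested on single animals. Leaving out any 1 of the 12 libraries moved the count by group alone by over 1.5 times, to between 1 and 4454, and only 1 of the 117 genes was called in every one of those 12 fits. With the set term the range was 98 (without vehicle replicate 3) to 2219 (without leptin replicate 5, rat 120), and 42 of the 117 genes, 37 risen and 5 fallen, were called in every fit. A fit to the low-numbered rats alone, by the same edgeR test, called 0 of 17890 genes tested, and 3431 had an unadjusted p below 0.05. In the fit to all 24 libraries by group alone, 4059 of 17347 did. Without leptin rats 56 to 62 the edgeR test called 2 genes by group alone and 18 with the set term, of which 0 and 2 were among the 117.

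Risen and fallen genes lay at different abundances. Of the 1309 genes with a mean of at least 100 CPM over the 12 libraries, 24 rose and 3 fell (2.06% called). Of the 7454 genes between 10 and 100 CPM, 56 rose and 8 fell (0.859%). Of the 4611 genes between 1 and 10 CPM, 9 rose and 16 fell (0.542%), and of the 3973 genes under 1 CPM 0 rose and 1 fell (0.0252%). Thus, by group alone, rises outnumbered falls among abundant genes, and falls outnumbered rises below 10 CPM. Over all classes the balance depended on the fit and on 1 library. Without leptin replicate 6, 2011 genes rose and 2443 fell by group alone, and 1003 rose and 472 fell with the set term.

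In each class the balance in all 24 libraries leaned the same way with the set term. There were 124 risen and 32 fallen genes in the top class, 522 and 187 in the class from 10 to 100 CPM, 66 and 99 from 1 to 10, and 10 and 23 under 1. Over all genes of a class, called or not, the median log2 difference with the term was 0.04 in the top class, then 0.03, -0.06 and, in the lowest class, -0.13. By group alone these medians were -0.07, -0.03, -0.04 and 0.01, so the order of the class medians depended on the term. Precision differed too: the median standard error by group alone was 0.63 under 1 CPM, 0.33 at 1 to 10, 0.23 at 10 to 100 and 0.29 at 100 and over. A gene under 1 CPM therefore had to differ by far more to be called.

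**Figure D2:**
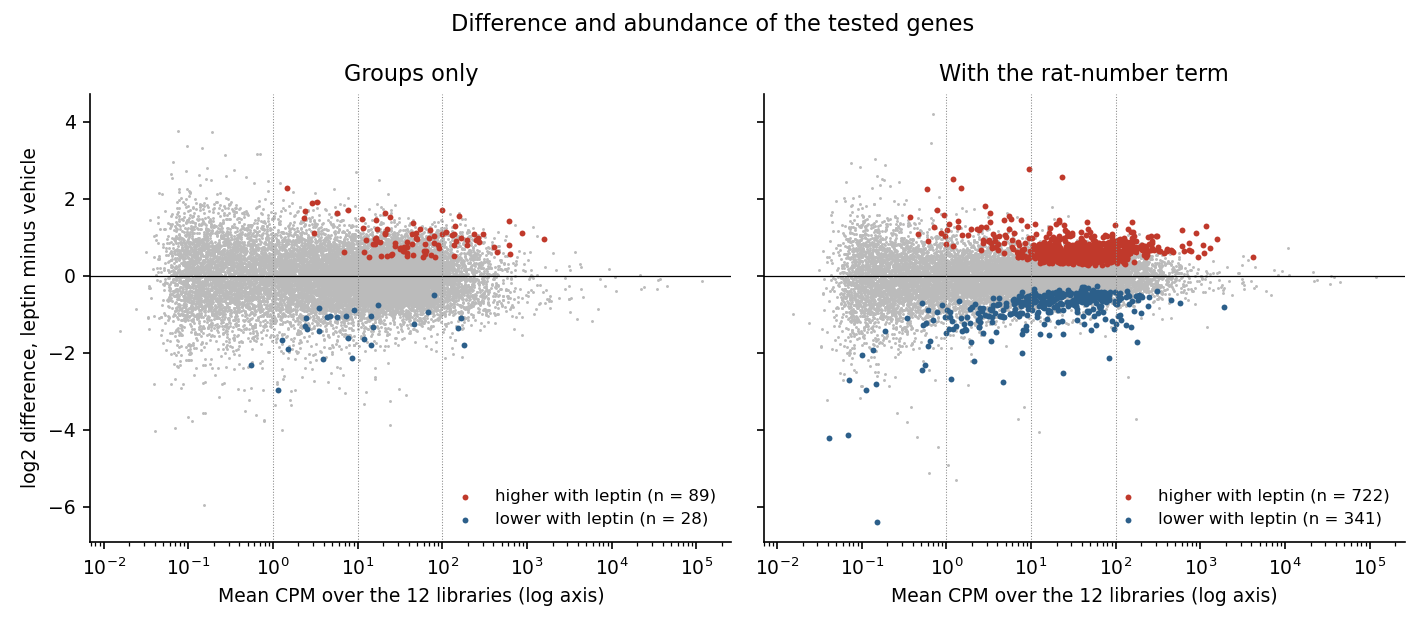
Log2 difference between leptin and vehicle against mean CPM over the 12 libraries (log axis) for the 17347 tested genes, by group alone (left) and with the set term (right), where grey points are genes not called and dotted lines mark the class bounds at 1, 10 and 100 CPM. Risen genes (89 and 722) sit mostly at 10 CPM and over, while fallen genes (28 and 341) extend to lower levels.

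The share of reads on the most abundant nuclear genes overlapped between the groups. The 10 most abundant nuclear genes of the study took 8.77% ± 2.84 (SD, n = 6) of nuclear reads with leptin and 10.2% ± 2.92 (n = 6) with vehicle, a difference of -1.38 percentage points (exact two-sided permutation test, p = 0.379). It was 0.307 points within the low-numbered rats (exact permutation p = 0.893) and 0.369 points within the high-numbered ones. The high-numbered rats stood at 12.5% to 13.1% and the low-numbered ones at 6.02% to 11.4%, so the sets did not overlap while the infusion groups did. For the 50 most abundant nuclear genes the shares were 17.6% with leptin and 20.3% with vehicle (exact permutation p = 0.305). Adjusted over the 3 share tests, every p was 0.528, and the smallest p that 6 against 6 allows is 0.00216.

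A gene on chromosome 16, ENSRNOG00000019615 (6731858 to 6787107, minus strand, 18 exon blocks, exonic length 3085 bp), had the second smallest p among the risen genes. Its levels with leptin were 63.7, 83.6, 67.3, 67.2, 35.9 and 74.7 CPM in replicates 1 to 6, and with vehicle 30.5, 26.9, 23.0, 20.6, 30.1 and 21.5 CPM. Every leptin library lay above every vehicle library, with rat 120 nearest to the vehicle range and the high-numbered leptin rat among the highest. The means were 65.4 ± 16.1 CPM (SD, n = 6) and 25.4 ± 4.34 CPM (n = 6), and the log2 difference was 1.36 ± 0.22 (SE, edgeR adjusted p = 0.0200). With the set term it was 1.39 (edgeR adjusted p = 0.00579), and it was 1.20 in the low-numbered and 1.65 in the high-numbered rats. The gene was called in 7 of 12 fits that each left out 1 library by group alone, and in 12 of 12 with the term.

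The largest rise among the called genes of at least 100 CPM was that of ENSRNOG00000000281 on chromosome 11 (82910137 to 82927305, plus strand, 15 exon blocks, 2336 bp). It stood at 334, 256, 198, 297, 165 and 157.5 CPM in leptin replicates 1 to 6 and at 114, 112, 65.7, 82.9, 49.8 and 53.01 CPM in vehicle replicates 1 to 6. The groups did not overlap, and within each group the lower-numbered rats were higher than rats above 100 in number. The log2 difference was 1.56 ± 0.29 (edgeR adjusted p = 0.0316) by group alone and 1.39 with the set term (edgeR adjusted p = 0.00923), with 1.36 in the low-numbered and 1.39 in the high-numbered rats. By group alone the call held in 5 of the 12 fits without 1 library, and with the term in all 12.

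Among the fallen genes of at least 100 CPM, the largest fall was that of ENSRNOG00000017206 on chromosome 9 (74448382 to 74465156, minus strand, 4 exon blocks, 5819 bp). Leptin replicates 1 to 6 had 69.3, 54.2, 70.4, 124, 100.2 and 67.3 CPM, and vehicle replicates 1 to 6 had 178, 186.01, 194, 375, 362 and 385 CPM. All leptin rats lay below all vehicle rats, and among the vehicle rats the 3 high-numbered ones lay far above the other 3. The log2 difference was -1.79 ± 0.39 (edgeR adjusted p = 0.0465), and -1.71 with the set term (edgeR adjusted p = 0.0213). Within the low-numbered rats it was -1.22 and within the high-numbered rats -2.47. The call held in 4 of 12 fits without 1 library by group alone and in 10 of 12 with the term.

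The next fallen gene, ENSRNOG00000008676 on chromosome 4 (168212861 to 168232904, plus strand, 7 exon blocks, 2624 bp), had 44.1, 79.7, 83.0, 93.9, 149 and 69.4 CPM with leptin. With vehicle it had 179, 212, 301, 200.4, 197 and 234 CPM. The groups did not overlap, and rat 120 again stood nearest to the vehicle rats. Here the sets of vehicle rats were alike, and the log2 difference was nearly the same by group alone (-1.35 ± 0.25, edgeR adjusted p = 0.0316), with the term (-1.34, edgeR adjusted p = 0.00923), in the low-numbered rats (-1.43) and in the high-numbered rat against its 3 vehicle counterparts (-1.60). The call held in 5 of 12 fits without 1 library by group alone and in 12 of 12 with the term.

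**Figure D3:**
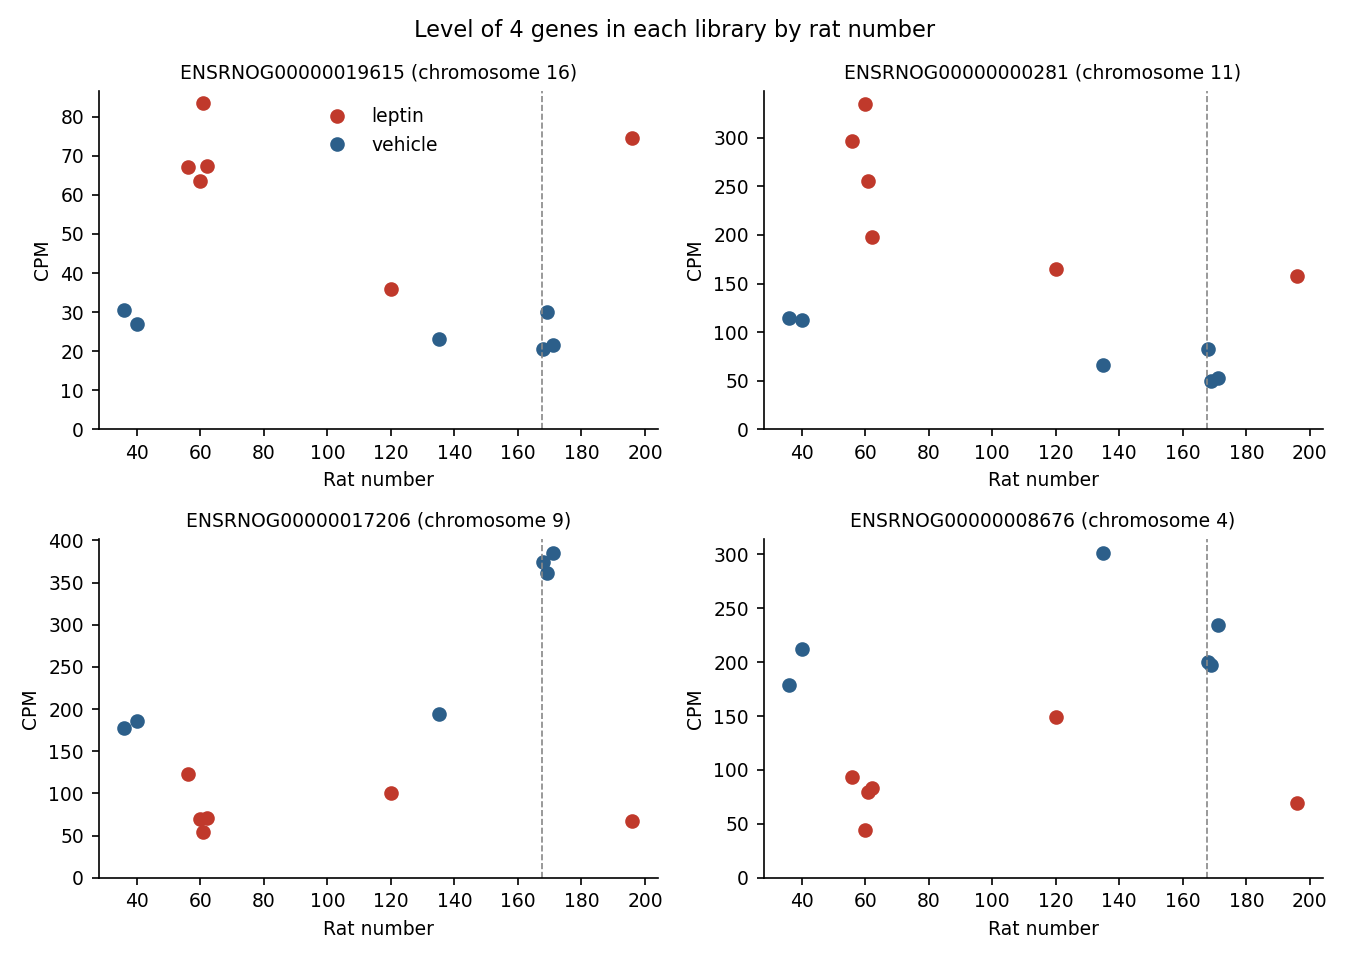
CPM of the 4 genes in each leptin (red) and vehicle (blue) library by rat number, with the dashed line between low and high numbers. In every panel the leptin and vehicle points do not overlap, and for the chromosome 9 gene the 3 vehicle rats above the line reach 362 to 385 CPM against 178 to 194 CPM in the vehicle rats below it.

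These 4 genes were also read in the leptin-infused rats with operated BAT. The chromosome 16 gene had 26.0 ± 9.78 CPM (SD, n = 6) after ablation and 34.4 ± 4.45 CPM (n = 6) after denervation, beside 65.4 with intact BAT and leptin and 25.4 with vehicle. The chromosome 11 gene had 90.1 ± 33.8 and 101.5 ± 41.1 CPM, beside 234 ± 72.8 and 79.6 ± 28.4 CPM. The chromosome 9 gene had 241 ± 182 and 182 ± 47.9 CPM, beside 80.8 ± 25.8 and 280.0 ± 103 CPM, and the chromosome 4 gene had 292 ± 97.9 and 230 ± 39.5 CPM, beside 86.5 ± 34.9 and 221 ± 43.6 CPM. In each case the means of both operated groups lay nearer to the vehicle mean than the intact leptin mean did. The genes were chosen for a high or low level in the intact leptin libraries, which any comparison with those libraries shares, so no test is given.

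Further risen genes came from all but the lowest abundance class. The most abundant risen gene, on chromosome 8 (109178409 to 109190549, 32 exon blocks, 5856 bp), had 2073 ± 285 CPM in leptin rats and 1067 ± 125 CPM in vehicle rats, without overlap between the groups. Its log2 difference was 0.96 ± 0.18 (edgeR adjusted p = 0.0316), and it was 0.95 with the set term, 0.92 in the low-numbered and 1.02 in the high-numbered rats. Its call held in 5 of 12 fits without 1 library by group alone and in 12 of 12 with the term. On chromosome 10 (62311660 to 62319659, 12 exon blocks), a gene with 887 ± 256 CPM in leptin rats and 333 ± 137 CPM in vehicle rats rose by 1.41 ± 0.30 (edgeR adjusted p = 0.0410) by group alone and by 1.19 with the term, with 1.08 in the low-numbered and 1.37 in the high-numbered rats. Another annotated gene overlaps the chromosome 10 position, and such counts cannot separate overlapping genes.

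Among the called genes between 10 and 100 CPM, the largest rises rested on the low-numbered rats. A gene on chromosome 6 (25275528 to 25284720) had 161, 246, 136, 192, 139 and 27.1 CPM in leptin replicates 1 to 6, against 20.2 to 77.8 CPM (median 40.6) with vehicle. Its difference was 1.71 ± 0.40 by group alone (edgeR adjusted p = 0.0483) and 1.32 with the set term (edgeR adjusted p = 0.0156), but 1.44 in the low-numbered and 0.05 in the high-numbered rats. A gene on chromosome 1 (15182704 to 15492900, 10396 bp) rose by 1.64 ± 0.37 (edgeR adjusted p = 0.0482), or 1.41 with the term (edgeR adjusted p = 0.0310), with 1.68 in the low-numbered and -0.25 in the high-numbered rats. The chromosome 1 gene is thus one of the 8 risen genes that were not higher with leptin in the high-numbered rats, where a single leptin rat carries the value.

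The deepest fall of all called genes was that of a gene on chromosome 11 (31580742 to 31593901, minus strand, 6 exon blocks), at 0.0217 to 0.622 CPM in leptin rats and 1.23 to 3.06 CPM in vehicle rats, without overlap. Its log2 difference was -2.97 ± 0.51 by group alone (edgeR adjusted p = 0.0316) and -2.69 with the set term (edgeR adjusted p = 0.00923). It was -2.67 in the low-numbered and -4.44 in the high-numbered rats, and the call held in 6 of 12 fits without 1 library by group alone and in 12 of 12 with the term. The fallen genes between 1 and 10 CPM had a median of -1.34, beside -1.14 between 10 and 100 CPM and -1.35 at 100 CPM and over.

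For 2 further fallen genes between 1 and 10 CPM, the high-numbered vehicle rats had the highest levels. On chromosome X (70817433 to 70878717) a gene stood at 3.20 ± 0.698 CPM in leptin rats and 14.1 ± 9.15 CPM in vehicle rats. Its log2 difference was -2.14 ± 0.47 (edgeR adjusted p = 0.0465) by group alone and -1.41 with the set term, with -0.90 in the low-numbered and -2.91 in the high-numbered rats. The vehicle rats ranged from 3.68 to 25.5 CPM, with the 3 high-numbered ones at 16.1 to 25.5 CPM, and the lowest vehicle rat lay within the leptin range of 2.48 to 4.13 CPM. On chromosome 4 (22316779 to 22505930) a gene fell by 2.15 on the log2 scale by group alone (edgeR adjusted p = 0.0482) and had a difference of -1.47 with the term, with -1.35 in the low-numbered and -2.35 in the high-numbered rats. The single called gene under 1 CPM, on chromosome 8 (121557062 to 121580166), had 0.183 ± 0.142 CPM in leptin rats and 0.923 ± 0.332 CPM in vehicle rats, differing by -2.32 ± 0.47 (edgeR adjusted p = 0.0388). It differed by as much with the term (-2.32, edgeR adjusted p = 0.0117), in the low-numbered rats (-2.51) and in the high-numbered rats (-2.24). One gene rose steeply at low level: on chromosome X (136856787 to 137076564), from 0.506 ± 0.160 CPM with vehicle to 2.46 ± 1.99 CPM with leptin, by 2.27 ± 0.46 (edgeR adjusted p = 0.0388), with 1 leptin rat, the high-numbered one, at 6.38 CPM. With the term it was 2.29 (edgeR adjusted p = 0.0102), with 1.70 in the low-numbered and 3.64 in the high-numbered rats.

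Among the called genes between 10 and 100 CPM, the largest falls were those of 2 genes. The gene on chromosome 4 at 178834271 to 178838468 had 4.53 to 8.13 CPM with leptin (median 6.50) and 13.6 to 37.7 CPM with vehicle (median 18.8), without overlap. It fell by 1.78 ± 0.42 on the log2 scale (edgeR adjusted p = 0.0499) and by 1.26 with the set term, with -1.26 in the low-numbered and -1.98 in the high-numbered rats. The gene on chromosome 8 at 11133678 to 11185842 had 3.00 to 8.31 CPM with leptin and 8.00 to 41.3 CPM with vehicle, overlapping at the edge, and its difference was -1.63 by group alone and -1.07 with the term, with -0.87 in the low-numbered and -1.54 in the high-numbered rats.

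Calls among the most abundant transcripts of the septum depended on the method and the term. In heart muscle such transcripts encode mainly contractile and calcium-handling proteins and energy enzymes. Of the 10 most abundant nuclear genes over the 12 libraries, edgeR called 0 by group alone, with 0 at an unadjusted p below 0.05. DESeq2 also called 0 and limma voom with sample weights called 6, all lower with leptin. Over all genes tested by group alone, edgeR called 0.674%, DESeq2 1642 of 15315 and limma voom 10506 of 17347. With the set term edgeR called 1, higher with leptin, while DESeq2 and limma voom each called 2. Over all genes the term gave 6.13% with edgeR, 2331 of 14647 with DESeq2 and 2768 of 17347 with limma voom. No test compared the 10 genes with these shares. By group alone 7 of the 10 lay below 0 and 3 above, and with the term 4 lay below and 6 above, so the direction over this set depended on the term.

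The 2 most abundant nuclear genes are neighbours on the minus strand of chromosome 15. The first (28446550 to 28468217, 38 exon blocks, 5923 bp) had 3043, 4485, 9731, 3235, 5333 and 32533 CPM in leptin replicates 1 to 6 and 6137, 5116, 7231, 20306, 17411 and 19750.0 CPM in vehicle replicates 1 to 6. The second (28417616 to 28441720, 40 exon blocks, 6042 bp) had 6659, 7484, 12004, 9334, 9192 and 20590.0 CPM with leptin and 3140, 4812, 5359, 17565, 19800.0 and 15877 CPM with vehicle. For both genes all 4 high-numbered rats lay above all low-numbered ones, whichever infusion they received, and the infusion groups overlapped.

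For the first gene of the pair the log2 difference was -0.38 ± 0.62 by group alone (edgeR adjusted p = 0.716) and 0.03 ± 0.30 with the set term (edgeR adjusted p = 0.959). In the low-numbered rats it was -0.38, and in the high-numbered rats 0.77. For the second gene the difference was -0.03 ± 0.48 (edgeR adjusted p = 0.976) and 0.72 ± 0.27 (edgeR adjusted p = 0.0964) with the term, while DESeq2 (0.73, adjusted p = 0.0319) and limma voom (0.74, adjusted p = 0.0410) called it higher with leptin with the same term. Within the low-numbered rats all 5 leptin rats (6659 to 12004 CPM) lay above all 3 vehicle rats (3140 to 5359 CPM), a difference of 1.02, and it was 0.22 in the high-numbered rats. Each gene of the pair overlaps another annotated gene, and reads that fit similar neighbouring genes equally well cannot be placed with certainty.

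Some others near the top followed the rat sets in the same way. A gene on chromosome 12 (34072683 to 34122101, 20 exon blocks, 5761 bp) stood at 649 to 1719 CPM in the 5 low-numbered leptin rats and at 9932 CPM in the high-numbered one, and at 805 to 1506 CPM in the low-numbered vehicle rats and 9518 to 9858 CPM in the high-numbered ones. Its difference of -1.12 ± 0.92 by group alone became -0.12 ± 0.29 with the set term, with -0.21 in the low-numbered and 0.04 in the high-numbered rats, and edgeR called neither. On chromosome 3 (100811987 to 100817523, 7 exon blocks) a gene had a difference of -1.18 ± 0.67 by group alone and -0.40 ± 0.40 with the term, with -0.56 in the low-numbered and -0.67 in the high-numbered rats. The gene of the set called with the term, on chromosome 3 (77095252 to 77113405, 35 exon blocks, 4192 bp), had 4649 ± 1009 CPM in leptin rats and 3741 ± 864 CPM in vehicle rats, differing by 0.31 ± 0.21 (edgeR adjusted p = 0.345) by group alone and by 0.49 ± 0.15 (edgeR adjusted p = 0.0485) with the term. It was 0.52 in the low-numbered and 0.52 in the high-numbered rats. For this gene the low- and high-numbered rats overlapped. Low-numbered leptin replicates 1 and 4 had 4753 and 4818 CPM, and high-numbered vehicle replicates 5 and 6 had 4496 and 4450 CPM.

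Titin, the giant elastic protein that spans the sarcomere from its border to its centre, was identified as the gene with the longest exonic sequence of the annotation (113560 bp in 353 exon blocks on chromosome 3, 61652439 to 61924741, where the next longest gene has 41093 bp), a name that rests on that length alone. It had 2550, 3453, 3276, 3259, 3003 and 4703 CPM in leptin replicates 1 to 6 and 1771, 1962, 2123, 3405, 3946 and 4977 CPM in vehicle replicates 1 to 6. The groups overlapped, since the 3 high-numbered vehicle rats lay within or above the range of the leptin rats, while the 3 low-numbered vehicle rats lay below every leptin rat. The log2 difference was 0.15 ± 0.29 (edgeR adjusted p = 0.753) by group alone and 0.53 ± 0.17 (edgeR adjusted p = 0.0592) with the set term, so edgeR called titin in neither. With the same term DESeq2 (0.54, adjusted p = 0.0112) and limma voom (0.58, adjusted p = 0.0130) called titin higher with leptin, as did edgeR without leptin replicate 6 (0.60, adjusted p = 0.0455). It was 0.67 in the low-numbered rats and 0.21 in the high-numbered rats. Per kilobase of exon, its level was 29.7 ± 6.36 CPM with leptin and 26.7 ± 11.4 CPM with vehicle.

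**Figure D4:**
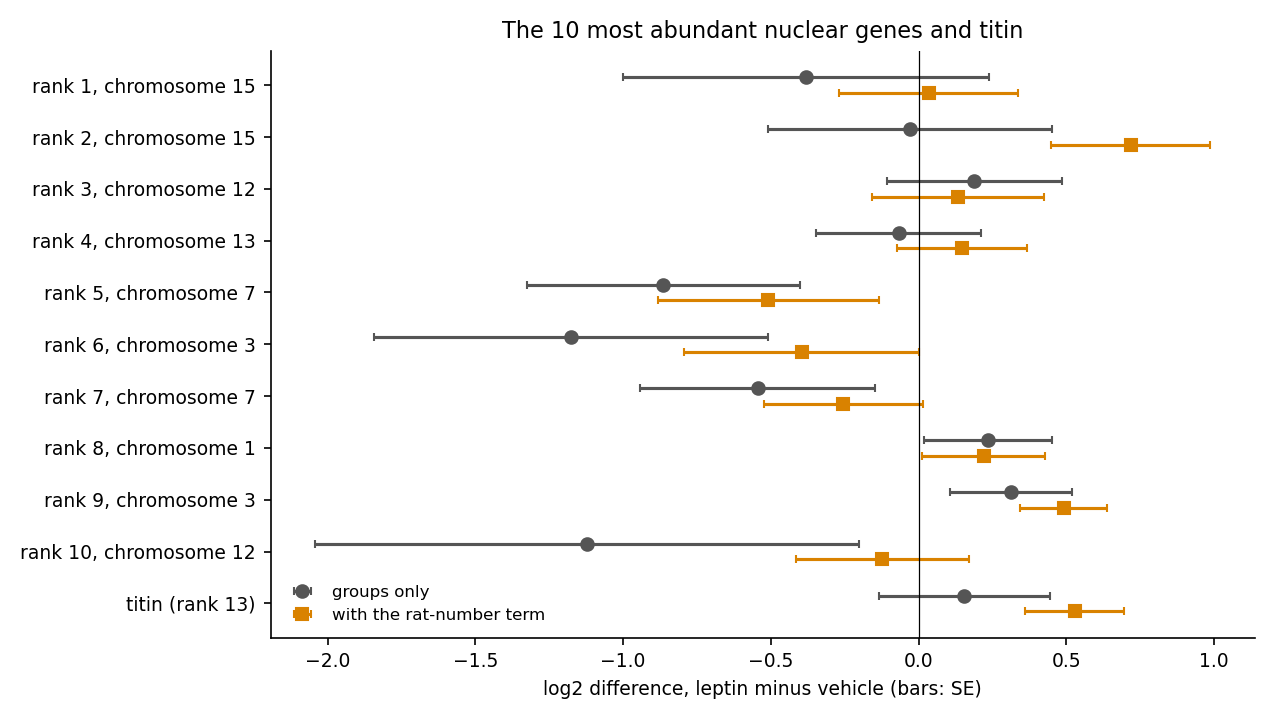
Log2 difference between leptin and vehicle (points, with SE as bars) of the 10 most abundant nuclear genes, named by rank and chromosome, and of titin, by group alone (grey) and with the set term (orange). The bars shrink with the term, the second gene of the chromosome 15 pair moves from -0.03 to 0.72, and the rank 10 gene on chromosome 12 moves from -1.12 to -0.12.

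Mitochondrial genes, which encode core subunits of the respiratory chain and the RNAs of the mitochondrial ribosome, took 33.5% ± 5.35 (SD, n = 6) of all reads with leptin and 35.2% ± 1.17 (n = 6) with vehicle. The leptin rats ran from 24.4% (replicate 3, rat 62) to 41.1% (replicate 1, rat 60), and the vehicle rats lay between, at 33.3% to 36.6%. The difference of -1.77 percentage points was within the spread (exact two-sided permutation test, p = 0.528), and it was -2.79 points in the low-numbered rats (exact permutation p = 0.536) and 0.550 points in the high-numbered ones. It was 0.0427 points without replicate 3 and -3.29 points without replicate 1 of the leptin rats. Of the 37 genes of the mitochondrial chromosome, 15 are at least 200 bp long, the others having the length of transfer RNAs. Among these 15, edgeR called 0 by group alone and 0 with the set term, with 1 at an unadjusted p below 0.05 in each fit. DESeq2 called 0 in both, and limma voom with sample weights called 10 (1 higher, 9 lower) by group alone and 0 with the term. Over all genes tested, edgeR called 0.674% by group alone and 6.13% with the term. DESeq2 called 1642 of 15315 and 2331 of 14647, and limma voom 10506 and 2768 of 17347. The 15 genes were not tested against these shares.

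The log2 differences of the 15 longer mitochondrial genes ran from -0.60 to 0.61 by group alone, with 12 below 0 and 3 above and a median of -0.25, beside -0.03 over all tested genes. With the set term they ran from -0.31 to 0.42, with 9 below 0 and 6 above and a median of -0.04. The gene furthest above 0 (mitochondrial positions 68 to 1025) had 4421 ± 1081 CPM in leptin rats and 2898 ± 411 CPM in vehicle rats, differing by 0.61 ± 0.24 (edgeR adjusted p = 0.144), and by 0.42 with the term, with 0.57 in the low-numbered and 0.26 in the high-numbered rats. Neighbouring mitochondrial genes overlap in part and the counting stated no strand, so these levels are uncertain at the borders.

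The risen genes were longer in exon structure than the background. They had a median of 13 exon blocks and 3252 bp of exonic sequence, beside 9 blocks and 2801 bp over all tested genes, and 1 of the 89 had a single exon (1.12%) where 6.56% of tested genes did. Fallen genes had a median of 8 exon blocks and 3576.5 bp, and 0 of 28 had a single exon. Abundance differed as well, the risen genes having a median of 44.4 CPM and the fallen ones 7.52 CPM beside 10.2 CPM over all. Its part in the difference in structure was not tested. By chromosome, called genes were spread widely, with 12 risen and 3 fallen on chromosome 1 of 2238 tested and 7 risen on chromosome 9 of 694 tested (1.01%).

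Risen genes lay close together in 3 stretches in which at least 3 called genes were less than 1 Mb apart, and no fallen genes did. On chromosome 8 (108452687 to 110459323) 5 genes rose, among them the most abundant risen gene described above, with log2 differences of 0.64 to 1.31. Of the 67 genes tested in that stretch 36 lay above 0, with a median of 0.17, where 48.1% of all tested genes lay above 0, and with the set term edgeR called 10 of them higher and 4 lower. Over all 17347 tested genes the term gave 722 called higher and 341 lower, together 6.13%. No stretch was tested against that share. On chromosome 9 (1158752 to 1903859) 4 genes rose by 0.55 to 1.496, and 18 of the 25 tested genes of the stretch lay above 0, with a median of 0.55 and, with the term, 7 called higher and 0 lower. On chromosome 7 (8466753 to 9737183) 3 genes rose by 1.08 to 1.22, and 46 of 64 tested genes lay above 0, with a median of 0.21 and, with the term, 5 called higher and 0 lower. All 12 risen genes of these stretches were higher with leptin in the low-numbered rats and in the high-numbered rats. The stretches were found from the calls themselves, a choice that favours high values in them.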

How the data were processed

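Per the labels' protocols, septal messenger RNA was read in pairs. Raw counts of 30562 genes were deposited by the authors. Per the file headers, featureCounts 2.0.6 made them from Ensembl release 113, assembly mRatBN7.2. The submitters' processing notes name STAR 2.7.10a and featureCounts 2.0.2, so the featureCounts version differs between these sources. The header names paired mode and no strand, multimapping or pair-counting option, and even counts were more frequent than odd ones (9951 counts of 2, 2650 of 1 in the 12 libraries), as when both mates are counted. Left out were 5 count columns whose names fit no sample here. No pair of libraries was identical (0 pairs).

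Counts of all 24 libraries were filtered with edgeR's filterByExpr, given TMM scaling and fitted in edgeR 4.0.16 under R 4.3.3 (robust quasi-likelihood test, groups as the main term, 17347 genes, threshold 0.05). Log2 CPM (prior count 2) gave the principal components. The set term separates the rats with the highest numbers (leptin replicate 6, vehicle replicates 4 to 6 and the 3 operated rats above the same bound) from the rest. DESeq2 1.42.0, limma 3.58.1, other scalings and filters, a replicate block and each library left out were alternatives. Members, lists and the set boundary were chosen with earlier results of these data known. Gene lists and cell type markers fixed by symbol were not run, because 0 identifiers matched a symbol, so the labelled tissue was not checked against markers. Genes were picked by rule, and not all of those picked are described singly. The rule took the 10 risen and 10 fallen of smallest p with at least 1 CPM (4 of them given by identifier). Their log2 differences by group alone were 0.80 to 1.89 and -2.97 to -0.76. It also took the 10 most abundant nuclear genes, the 4 largest differences called in each abundance class and, added after the files were seen, the longest gene. Where both groups had to be compared by a single value per library, exact permutation tests were used. CPM intervals cover the spread between rats.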

Additional observations from a re-analysis of the deposited data

Results flagged for a closer look

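In groups of 6, a library was picked out when its gap to the nearest other library exceeded Dixon's 95% critical share of the group's range. Of 56 groups of 6 values examined 4 met this, where chance gives about 1 in 20. In 3 of the 4 the library was leptin replicate 6, the only high-numbered leptin rat with intact BAT. It had 32533 CPM of the most abundant nuclear gene (chromosome 15, 28446550 to 28468217), where the next leptin library had 9731 CPM. It had 9931.5 CPM of the chromosome 12 gene at 34072683 to 34122101, where the next had 1719 CPM, and 6.3843 CPM of the chromosome X gene at 136856787 to 137076564, where the next had 2.24 CPM. For the 2 autosomal genes the high-numbered vehicle rats were also high, while for the chromosome X gene they were not (0.342 to 0.686 CPM). In the remaining one, vehicle replicate 3 had 10341 CPM of the chromosome 12 gene at 34454218 to 34468983, where the next vehicle library had 8736 CPM.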

How the results depend on the processing

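The count of called genes depended on nearly every choice. By group alone 117 genes were called. The count was 1069 with the rat number as a linear covariate, 1063 with the set term, 450 with the term in the 12 libraries alone, 6 in the 12 libraries without it and 0 in the low-numbered rats. It was 204 with DESeq2's size factors, 33 with upper-quartile scaling, 234 with genes of at least 1 CPM on average, 3 with no filter, 205 with halved counts and 126 with scaling from nuclear genes. DESeq2 called 1642 genes (2331 with the term) and limma voom with sample weights 10506 (2768 with the term). Rises outnumbered falls with DESeq2 by group alone (1164 and 478). With limma voom falls outnumbered rises by group alone (4944 rose, 5562 fell), but not with the term (1713 rose, 1055 fell). Without leptin rats 56 to 62, a choice made after seeing the data, the counts were 2 and 18. Leaving out 1 library gave 1 to 4454 genes over both fits. The cause of these differences was not tested.

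With the replicate number as a block 3635 genes were called, 1871 higher and 1764 lower with leptin. Same-numbered rats correlated at -0.28 to 0.65 in their deviations, with 3 of 6 pairs over 0.1. The mean was 0.19, beside -0.04 for rats of different numbers, and 1 of 6 leptin libraries was nearest to its own number. No pairing by number was therefore assumed in the main fit. Under the block the difference in the share of the 10 most abundant nuclear genes stayed at -1.38 points.

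That share difference became 0.307 points in the low-numbered rats, and ran from -2.25 to -0.823 without 1 library. The mitochondrial share difference ran from -3.29 (p = 0.0303 by exact permutation, without leptin replicate 1) to 0.0427 (without leptin replicate 3).

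The 15 called genes refitted kept their direction in each setting that tested them, while within the high-numbered rats the chromosome 1 gene at 15182704 had a bare difference of -0.25. Genes that edgeR did not call by group alone changed direction. The chromosome 15 gene at 28446550 had 0.033 with the set term, 0.094 with the term in 12 libraries, 0.047 with DESeq2 and the term, and 0.58 and 0.32 (with the term) without rats 56 to 62, and ran from -1.29 to 0.15 without 1 library. Its neighbour at 28417616 had 0.72 with the term, 0.56 with the linear number, 1.01 in low-numbered rats, 0.031 and 0.83 (with the term) in 12 libraries, 0.18 with the block, 0.041 with upper-quartile scaling, 0.73 with DESeq2 and 0.74 with limma (both with the term), and 0.42 and 0.63 without rats 56 to 62. Without 1 library it ran from -0.31 to 0.81. The chromosome 13 gene at 47267204 had 0.15 (term), 0.14 (linear number), 0.18 (low-numbered), 0.25 (12 libraries, term), 0.16 (DESeq2, term), 0.078 (limma, term), and 0.23 and 0.20 without rats 56 to 62, and -0.27 to 0.23 without 1 library. Without rats 56 to 62 the chromosome 7 gene at 515460 had 0.11 and 0.025 and the chromosome 12 gene at 34072683 had 0.028 and 0.0048. The latter ran from -2.46 to 0.028 without 1 library, and the chromosome 12 gene at 34454218 from -0.044 to 0.29. Titin had -0.18 with limma by group alone.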
